A study of Mus musculus with 30 samples.

Results

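The erythroid gene set comprised 42 mouse genes that serve the red blood cell and its precursors, and 41 of them matched 1 gene each among the 54532 genes of the deposited tables. The genes were selected by symbol and were assigned to 7 classes by role, with 5 globin chain and chaperone genes, 8 heme synthesis genes, 8 membrane skeleton genes, 6 membrane antigen and channel genes, 8 late reticulocyte transcripts, 3 red cell enzymes, and 4 regulators and others. Ahsp was not matched, and Icam4 was listed at 0 counts in all 30 libraries, so that 40 members had counts. RNA was sequenced from platelets and from peripheral blood mononuclear cells (PBMCs) of female C57BL/6 mice, 6 to 8 weeks old at the start, that received a subcutaneous injection in the right flank. C group received the Hanks' balanced salt solution (HBSS) carrier alone. S group received a suboptimal dose of 2000 B16F10 cells, a C57BL/6 mouse melanoma line, and its labels call this an early tumor stage, at which no tumor was visible. O group received the optimal dose of 100000 B16F10 cells and is labelled as large tumor. Blood was drawn on day 14 by the retro-orbital route, and each group had 5 libraries per tissue. By the labels each library was a pool of 3 to 10 mice, with slightly different sizes given in the methods for the S group platelets, and O group libraries 1 and 4 of both tissues were the pools of 3 mice. The platelet-rich plasma came from the first spin of the blood. The PBMC layer came from a later spin of the remaining bottom layer on a PBMC isolation reagent. The labels do not state whether a PBMC pool and a platelet pool with the same number held the same mice.

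Red blood cells mature from erythroblasts in the bone marrow through reticulocytes, which have lost the nucleus but still hold RNA, to erythrocytes, in which little RNA is left. Hemoglobin is a tetramer of alpha-globin and beta-globin chains that carry heme, and heme is made by a chain of enzymes that starts in erythroid cells with Alas2. A skeleton of spectrin and ankyrin anchored to band 3 keeps the red cell membrane flexible, while late reticulocytes hold transcripts of ubiquitin and autophagy factors that clear organelles and proteins. Neither platelets nor mononuclear leukocytes make hemoglobin in quantity.

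The adult globin genes lie in 2 clusters and come as near-identical pairs. On GRCm38, Hba-a1 (ENSMUSG00000069919) lies at chr11:32283511-32284465 and Hba-a2 (ENSMUSG00000069917) at chr11:32296489-32297298, both on the plus strand. Hbb-bs (ENSMUSG00000052305) lies at chr7:103826534-103828096 and Hbb-bt (ENSMUSG00000073940) at chr7:103812524-103813996, both on the minus strand, and Alas2 (ENSMUSG00000025270) lies at chrX:150547375-150570638 on the plus strand. All 5 are protein-coding genes, and the counts were summed over exons. Of the 50-base windows of each gene's exons, 67.5% for Hba-a1, 86.9% for Hba-a2, 65.8% for Hbb-bs and 58.3% for Hbb-bt also occurred in another gene, so that the split of reads within a pair is uncertain. Smaller shares were found for Bnip3l, at 23.4%, and Car1, at 14.5%.

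Promoter sequence was examined because many of the members are known targets of GATA and Krüppel-like factors. The AGATAA motif was found on either strand in 12 of the 31 members that had a window from 250 bases before to 50 bases after the RefSeq start, or 38.7%, against 12.7% of 27025 genes. CCNCNCCC was found in 67.7% of these members and 51.9% of genes, and TATAAA in 16.1% of members and 15.7% of genes. The stretches below run upstream of the start of 5 members and end before any annotated exon. They are shown to compare a globin of each cluster with the first heme enzyme and a pair of blood group genes. They are RefSeq sequence on GRCm38.p6, 5′ to 3′ on the strand of the gene, for Hba-a2 at chr11:32296342-32296488 on the plus strand, Hbb-bt at chr7:103813997-103814073 on the minus strand, Alas2 at chrX:150547267-150547374 on the plus strand, Rhd at chr4:134864386-134864535 on the plus strand and Kel at chr6:41704340-41704475 on the minus strand. Capitals mark a match to AGATAA or CCNCNCCC on either strand.
Hba-a2: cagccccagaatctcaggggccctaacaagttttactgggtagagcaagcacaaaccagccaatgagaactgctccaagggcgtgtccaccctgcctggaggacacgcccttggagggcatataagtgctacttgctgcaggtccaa
Hbb-bt: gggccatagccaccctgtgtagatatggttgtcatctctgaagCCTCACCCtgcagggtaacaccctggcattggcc
Alas2: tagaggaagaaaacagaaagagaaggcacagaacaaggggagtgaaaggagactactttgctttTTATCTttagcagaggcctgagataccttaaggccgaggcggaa
Rhd: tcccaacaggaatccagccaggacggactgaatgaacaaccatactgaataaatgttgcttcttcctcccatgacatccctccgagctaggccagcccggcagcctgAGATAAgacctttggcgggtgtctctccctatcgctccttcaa
Kel: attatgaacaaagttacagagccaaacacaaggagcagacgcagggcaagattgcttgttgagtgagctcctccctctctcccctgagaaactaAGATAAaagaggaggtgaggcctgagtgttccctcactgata
Within the printed stretches, Alas2, Rhd and Kel held the AGATAA motif, in Alas2 on the opposite strand, and Hbb-bt held CCNCNCCC. The full windows of these genes held further matches, to CCNCNCCC in Alas2 and Rhd and to TATAAA in Alas2 and Hbb-bt. Within the stretch printed for Hba-a2, none of the searched motifs was found. The upstream sequences of Hba-a1 and Hba-a2 were identical over 147 bases once offset by 3 bases, whereas those of Hbb-bs and Hbb-bt matched at 71.1% of 149 bases. A match is a description of these letters and was not tied to binding of any factor.

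Total counts per library ranged from 12259036 to 25360080. The tissue labels were checked with marker lists, and all 11 platelet genes tested were higher in platelets than in PBMCs, with a median log2 fold change of 4.28. The cell type field of the platelet samples nevertheless reads PBMC. Library 3 of the S group in PBMCs had counts on 32900 genes, against 20540 to 22991 in the other PBMC libraries. O group library 1 stood apart from its group in both tissues, and PBMC library 4 of the O group did so to a lesser degree. In PBMCs, the summed level of 8 markers of dividing cells was 1127 CPM (counts per 1000000 counts of the library) in O1 and 185 in O4, against 52.6 to 73.8 in the other O group libraries and 55.4 to 86.4 in the C group. The summed level of 8 neutrophil markers was 5516 and 5166 CPM in O1 and O4, against 419.6 to 784 in the other O group libraries and 320.3 to 1787 in the C group. In the S group it ran from 361.7 to 3380 CPM, with the highest value in S4. The summed level of 12 platelet markers was 12110 and 7226 CPM in O1 and O4, against 1610 to 2735 in the other O group libraries and 880.4 to 5090 in the C group. In platelets, O1 had 937 CPM for the dividing cell list and 3361 CPM for the neutrophil list, against at most 51.3 and 600.1 in the other O group libraries. At most 1 marker of each of these 3 lists was at 0 in any O group library. Their part in the results was not tested, and the counts of members called are given with and without these libraries.

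Levels are given as CPM scaled with TMM factors within each tissue, in the order of libraries 1 to 5, and are not comparable between tissues or, unless divided by length, between genes. The factors, by which CPM are divided, ran from 0.551 in O1 to 1.17 in PBMCs and from 0.553 in O1 to 1.65 in platelets, so the unscaled share of counts is given first. In the PBMCs of the C group, the 4 globin genes took 3.29%, 5.07%, 9.39%, 3.65% and 4.64% of all counts. The values were 5.09%, 7.93%, 8.62%, 3.23% and 4.74% in the S group and 24.5%, 18.2%, 15.1%, 19.2% and 6.52% in the O group. All O group libraries except library 5 lay above every C and S group library. In platelets, the share was 22.3%, 5.29%, 19.8%, 23.7% and 27.6% in the C group, 11.9%, 22.1%, 13.6%, 11.6% and 15.6% in the S group, and 39.0%, 4.02%, 21.9%, 4.29% and 17.2% in the O group. O group thus held both the highest and the lowest platelet libraries, and the groups overlapped. In bulk RNA, fewer cells of a type and less RNA per cell cannot be told apart.

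**Figure D1:**
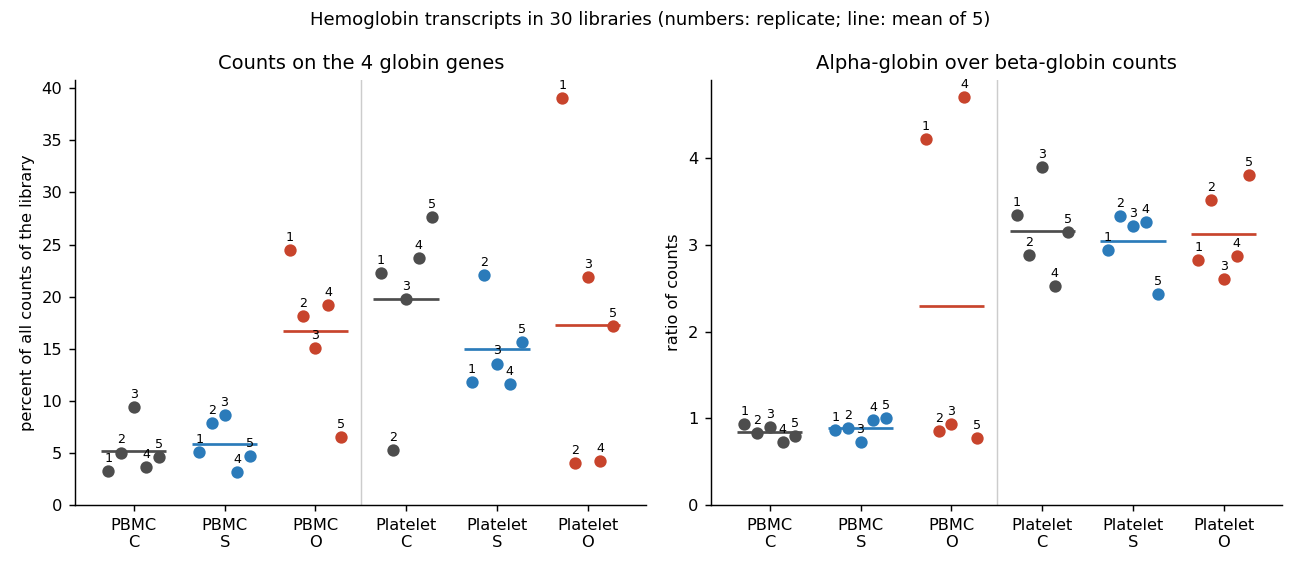
Hemoglobin transcripts by library. The left panel plots the percent of a library's counts on the 4 globin genes and the right panel the ratio of alpha-globin to beta-globin counts for C, S and O group of each tissue, with points numbered by replicate and a line at the mean of 5 libraries. PBMC libraries O1 and O4 sit at ratios of 4.21 and 4.70, above the 0.725 to 1.01 of the other PBMC libraries.

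The balance of the chains also set 2 PBMC libraries apart. The ratio of alpha-globin to beta-globin counts, not scaled to gene length, was 0.725 to 1.01 in 13 PBMC libraries, 4.21 in O1 and 4.70 in O4, whereas it was 2.43 to 3.90 in the platelet libraries. The ratio of Hbb-bs to Hbb-bt counts was 0.954 in O1 and 0.906 in O4 and 2.12 to 5.64 in the other PBMC libraries. These libraries with an excess of alpha over beta thus also had the lowest share of Hbb-bs within beta-globin. Per kilobase of exon, the globins were the highest members in the PBMCs of the C group, with mean CPM per kb of 26035 for Hbb-bs, 22862 for Hba-a1, 8253 for Hbb-bt and 5002 for Hba-a2. Alas2 followed at 647 CPM per kb and Bpgm at 224. In the platelets of the C group the order began with Hba-a1 at 189746 CPM per kb, followed by Hbb-bs at 50091, Hbb-bt at 19394, Hba-a2 at 13619, Alas2 at 3325 and Bpgm at 1236.

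Large tumor and control PBMCs were compared to ask which erythroid transcripts differ in the blood of mice with a large tumor. Of the 38 members tested, 34 were higher in the O group at an unadjusted P below 0.05 (edgeR quasi-likelihood test) and none was lower, with a median log2 fold change of 3.42 and a range from 0.45 to 6.43. Over all 14726 genes tested, 11.9% passed this threshold, 7.56% as higher and 4.39% as lower. None of the members passed after Benjamini-Hochberg adjustment over all genes, against 0% of all genes tested, and the smallest adjusted P of a member in edgeR was 0.337. DESeq2 gave a P to 33 members, of which 29 had an unadjusted and 24 an adjusted P below 0.05, against 15.2% and 1.93% of all genes with such a P. With O1 and O4 left out, an alternative chosen after the data were seen, 28 of 38 remained higher in edgeR at the unadjusted threshold with a median of 1.24, against 9.08% of all genes in either direction and 5.19% as higher. With only O1 left out, 31 were higher with a median of 2.11, against 6.20% of all genes. With the replicate number as a block 21 were higher with a median of 2.36, against 12.2% of all genes in either direction.

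The 4 globin chain genes were all higher in the O group. Hba-a1, an alpha-globin gene, had levels of 10309, 19513, 35477, 12977 and 14542 CPM in the C group, 19376, 28639, 30807, 12584 and 17640.5 in the S group, and 337325, 77401, 57682, 163219 and 20866 in the O group. Hba-a2, the second alpha-globin gene, had 3310.5, 1656, 6561, 1196 and 3956 CPM in the C group, 1819.8, 6802, 3359, 1892 and 3359 in the S group, and 22164, 16552, 19199, 44821 and 4963 in the O group. For both genes, 4 of 5 O group libraries lay above every C group library and O5 lay within the range of the C group. The log2 fold change was 2.82 (SE 0.69) for Hba-a1 and 2.68 (SE 0.60) for Hba-a2. Hbb-bs, the first adult beta-globin gene, had 10558, 20528, 37111, 14043 and 17735 CPM in the C group, 19889.9, 32539.9, 33667, 12518 and 16116 in the S group, and 41688, 74595, 64664, 21048 and 26450.4 in the O group. Here O4 and O5 overlapped the C group. Hbb-bt, its neighbor, had 3988, 4786, 9599, 5290.1 and 5345 CPM in the C group, 4629.5, 7079, 13472, 2219.9 and 4684 in the S group, and 43715, 35238, 17551, 23239.7 and 6740.0 in the O group, with only O5 inside the C range. The log2 fold change was 1.19 (SE 0.43) for Hbb-bs and 2.12 (SE 0.45) for Hbb-bt. Without O1 and O4, the 4 genes were still higher at the unadjusted threshold, with a class median of 1.63 instead of 2.40.

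Among the heme synthesis genes, 6 of 8 were higher in the O group, with a class median of 2.34, and Uros and Ppox were not called at 0.45 and 0.82. Alas2, the first and rate-limiting enzyme of erythroid heme synthesis, had levels of 778, 1461, 3347, 1015 and 1168 CPM in the C group, 1339, 2443, 2853, 979.6 and 1414 in the S group, and 29853, 6981, 5572, 11982 and 1972 in the O group. Its 4 higher O group libraries lay above all of the C group, and its log2 fold change was 2.85 (SE 0.69). Alas2 shares 15.5% of its exonic bases with Apex2 on the opposite strand, and whether the counting used strand is not given in the sources used here. Alad, which makes porphobilinogen in the second step of the pathway, had 10.4, 9.31, 8.25, 8.58 and 9.15 CPM in the C group, 9.89, 9.48, 9.41, 9.37 and 9.45 in the S group, and 161, 7.62, 8.03, 49.7 and 7.99 in the O group. Its other 3 O group libraries lay below every C group library, but on CPM without TMM factors O5 overlapped the C group. The log2 fold change of 2.34 (SE 0.84) turned to -0.21 without O1 and O4. The class divided when both libraries were left out. Alas2 at 1.64, Urod at 0.63, Fech at 1.504 and the mitochondrial iron importer Slc25a37 at 0.44 were still called higher, while Alad at -0.21, Uros at -0.19, Cpox at 0.013 and Ppox at -0.057 were not called.

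The membrane skeleton genes had the highest class median, 4.89, and 7 of 8 were higher in the O group. Gypc, the sialoglycoprotein that ties the skeleton to the membrane, was not called at 1.02. Slc4a1, the band 3 anion exchanger, had levels of 47.4, 104, 251, 83.0 and 83.4 CPM in the C group, 90.03, 154, 242, 44.7 and 109 in the S group, and 17403, 577, 308, 2306 and 153 in the O group. Epb42, the band 3 partner protein 4.2, had 3.22, 5.94, 12.9, 5.14 and 4.49 CPM in the C group, 6.93, 9.61, 15.3, 2.84 and 5.47 in the S group, and 1121, 28.5, 16.2, 96.5 and 8.56 in the O group. For both, O1 was far above the rest, O2 to O4 lay above every C group library and O5 overlapped the C group. The log2 fold change was 5.18 (SE 1.32) for Slc4a1 and 5.32 (SE 1.38) for Epb42. The other called members ranged from 3.45 for Epb41, protein 4.1, to 6.43 for Add2, beta-adducin, with Ank1 (ankyrin) at 5.04. Without O1 and O4 the same number, 7 of 8, were called and the class median was 1.39, below the 1.63 of the globins and the 1.52 of the enzymes.

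Of the membrane antigens and channels, all 5 members with counts were higher in the O group, with a median of 4.36. Rhd, the Rh blood group protein, had levels of 2.05, 3.30, 3.69, 2.48 and 1.48 CPM in the C group, 2.67, 3.42, 4.97, 2.61 and 1.99 in the S group, and 169.7, 7.45, 4.25, 40.5 and 2.35 in the O group. Rhag, the Rh-associated glycoprotein, had 0.4997, 0.901, 1.14, 0.423 and 0.591 CPM in the C group, 0.227, 0.645, 1.68, 0.341 and 0.939 in the S group, and 217, 2.18, 2.12, 17.4 and 0.698 in the O group. O1 and O4 were the highest libraries for both genes, O2 and O3 also lay above the C group, and O5 was again within its range. The log2 fold change was 4.09 (SE 1.12) for Rhd and 6.04 (SE 1.62) for Rhag. Kel, the Kell blood group protein, was at 4.36, Ermap at 4.93 and the water channel Aqp1 at 1.96. Without O1 and O4, 3 of 5 were called with a median of 1.07, Rhd and Aqp1 were not called, and Aqp1 turned to -0.093.

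All 8 late reticulocyte transcripts were higher in the O group, with a median of 3.04. Bnip3l, the receptor that directs mitochondria to autophagy in reticulocytes, had levels of 160.3, 247, 384, 222 and 236 CPM in the C group, 229, 353, 419, 209 and 243 in the S group, and 3544, 681, 501, 1348 and 287 in the O group. Fbxo7, a subunit of an SCF ubiquitin ligase, had 24.99, 26.8, 29.6, 26.8 and 23.7 CPM in the C group, 24.4, 28.9, 31.5, 24.98 and 25.8 in the S group, and 119, 30.6, 32.7, 52.4 and 27.3 in the O group. In both genes 4 O group libraries lay above the C group and O5 did not, but the span of Fbxo7 was much narrower. The log2 fold change was 2.34 (SE 0.61) for Bnip3l and 0.97 (SE 0.37) for Fbxo7. Trim58, an erythroid ubiquitin ligase, was the only member whose O group libraries all lay above the C group, with 0.999, 0.841, 1.61, 1.39 and 0.886 CPM in the C group, 1.53, 1.48, 2.42, 1.53 and 1.10 in the S group and 115, 4.10, 3.86, 17.6 and 1.90 in the O group, and it was singled out after its values were seen. Of all genes tested, 0.679% were higher in the O group with no overlap. The other log2 fold changes were 2.39 for Mkrn1, 2.69 for Isg20, 3.39 for the ubiquitin-conjugating enzyme Ube2o, 4.61 for Trim58, 4.85 for Trim10 and 4.91 for Tmcc2. Without O1 and O4, 7 of 8 were called, all but Fbxo7, with a median of 1.04.

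Among the red cell enzymes, both tested members were higher, with a median of 3.85. Bpgm, which makes the 2,3-bisphosphoglycerate that lowers the oxygen affinity of hemoglobin, had levels of 406, 723, 1709, 543 and 635 CPM in the C group, 657, 1363, 1654, 484 and 738 in the S group, and 13694, 3823, 2697, 6846 and 998 in the O group, again with only O5 in the C range. Its log2 fold change was 2.80 (SE 0.66), and that of the carbonic anhydrase Car2 was 4.91. Car1, another carbonic anhydrase, had 0, 0.180, 0.402, 0.121 and 0.177 CPM in the C group, 0.227, 0.129, 0.336, 0.114 and 0 in the S group, and 7.63, 0.167, 0.236, 5.78 and 0.0634 in the O group, and was too low for the test. Klf1, the master erythroid transcription factor, had 0.444, 0.180, 0.134, 0.725 and 0.413 CPM in the C group, 0.227, 0.580, 1.41, 0.397 and 0.387 in the S group, and 28.7, 0.167, 0.315, 2.64 and 0.190 in the O group, and was not tested either. In both genes O1 and O4 alone lay above the C group. Epor, the erythropoietin receptor, had 1.67, 2.52, 0.470, 3.08 and 2.72 CPM in the C group, 3.07, 1.16, 1.68, 2.78 and 1.60 in the S group, and 13.2, 0.670, 2.99, 5.68 and 1.27 in the O group, and did not pass, at 1.12 (SE 0.72). The erythroid nuclear protein Hemgn was higher at 4.31 and Tspo2, a translocator protein of erythroid cells, at 4.14. Without O1 and O4 both enzymes were called with a median of 1.52, and Tspo2 was the only called regulator.

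Read library by library, the classes were not ordered alike in all PBMC pools of the O group. Relative to the median of the C group, O1 had class medians on the log2 scale of 7.20 for the membrane skeleton, 6.37 for antigens and channels, 5.92 for regulators, 4.80 for enzymes, 4.73 for late reticulocyte transcripts, 4.22 for heme synthesis and 2.89 for globins. O4 had 4.41 for enzymes, 4.04 for the membrane skeleton, 3.98 for antigens, 3.32 for late reticulocyte transcripts, 3.26 for regulators, 2.81 for globins and 2.12 for heme synthesis. In O2 and O3 the globins came first, at 2.37 and 1.93, followed by the membrane skeleton at 2.32 and 1.52, enzymes at 2.16 and 1.49, and late reticulocyte transcripts at 1.63 and 1.27. Antigens and channels were at 1.62 and 0.95, heme synthesis at 0.37 and 0.22, and regulators at 0.0078 and 0.72. O5 was near C group, with 0.65 for enzymes, 0.61 for the membrane skeleton, 0.55 for globins, 0.24 for late reticulocyte transcripts, 0.21 for antigens and channels, 0.20 for heme synthesis and -0.49 for regulators. Of the 40 members with counts, 40, 31, 29, 38 and 1 exceeded every C group library in O1 to O5, against 31.7%, 21.3%, 18.0%, 25.5% and 13.5% of all genes tested. O1 was the highest of the 15 PBMC libraries for 38 of 40 members, and for 36 or 37 of 40 on 2 other scales of level. These are descriptions of single pools, and the order of the classes was not tested.

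**Figure D2:**
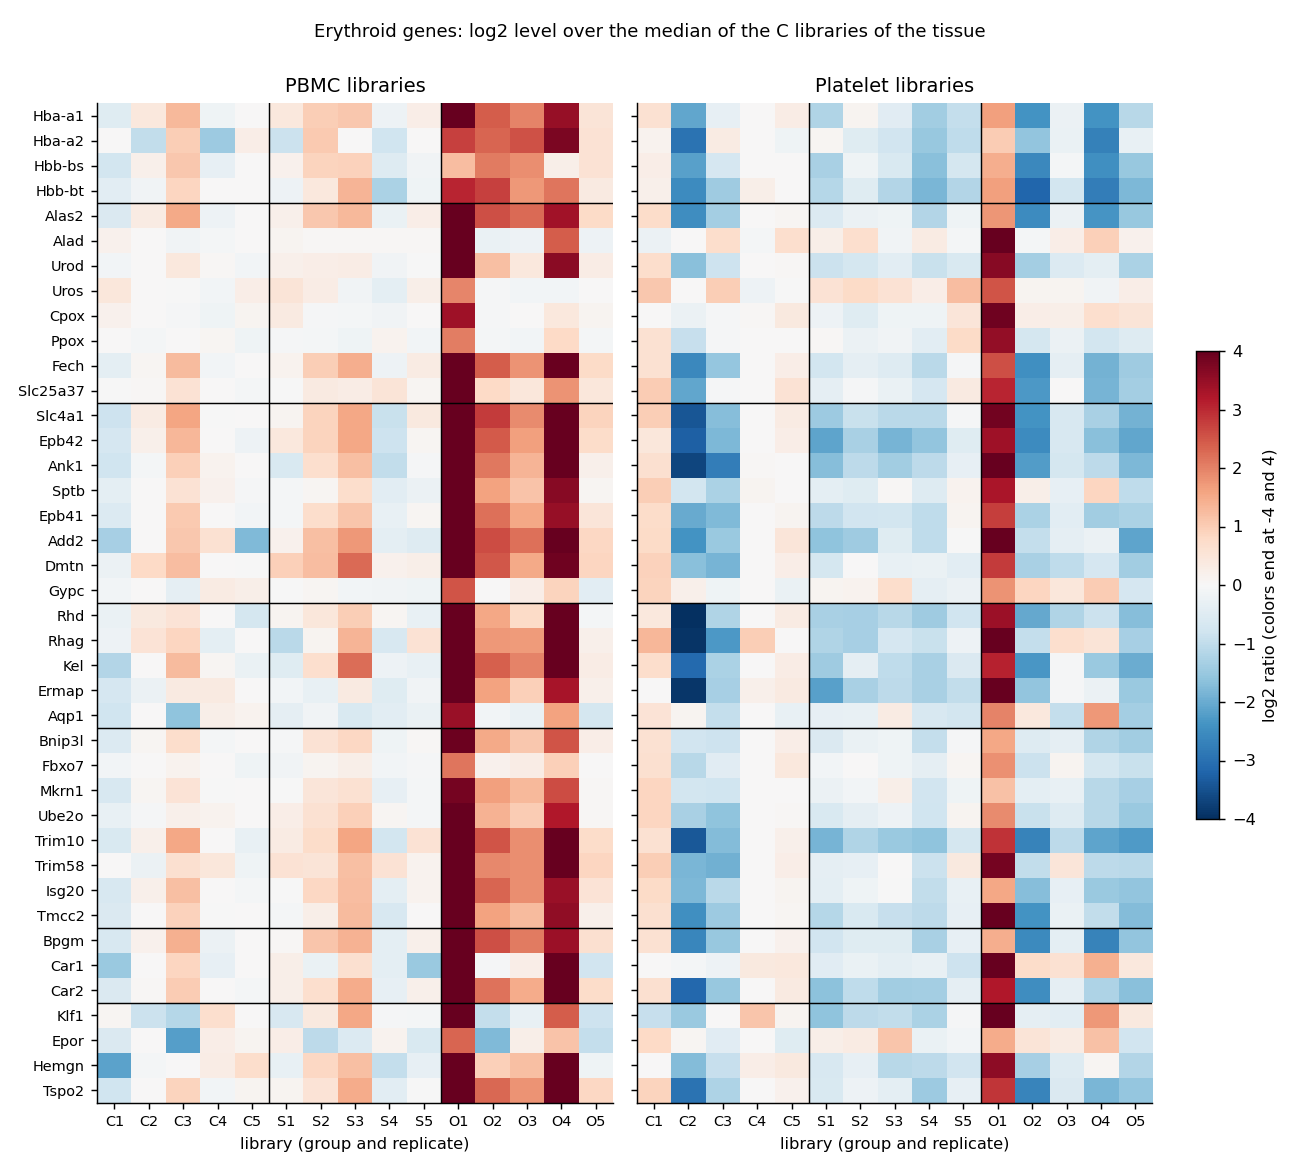
Erythroid genes in each library. Colors give the log2 level of a gene (row) in a library (column) over the median of the C group libraries of the same tissue, with a pseudocount of 0.1 CPM, and lines divide groups and classes in the order used in the text. PBMC O1 to O4 are raised for most members, while among platelet libraries only O1 is raised throughout, at more than 2-fold for all 40 members.

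**Figure D3:**
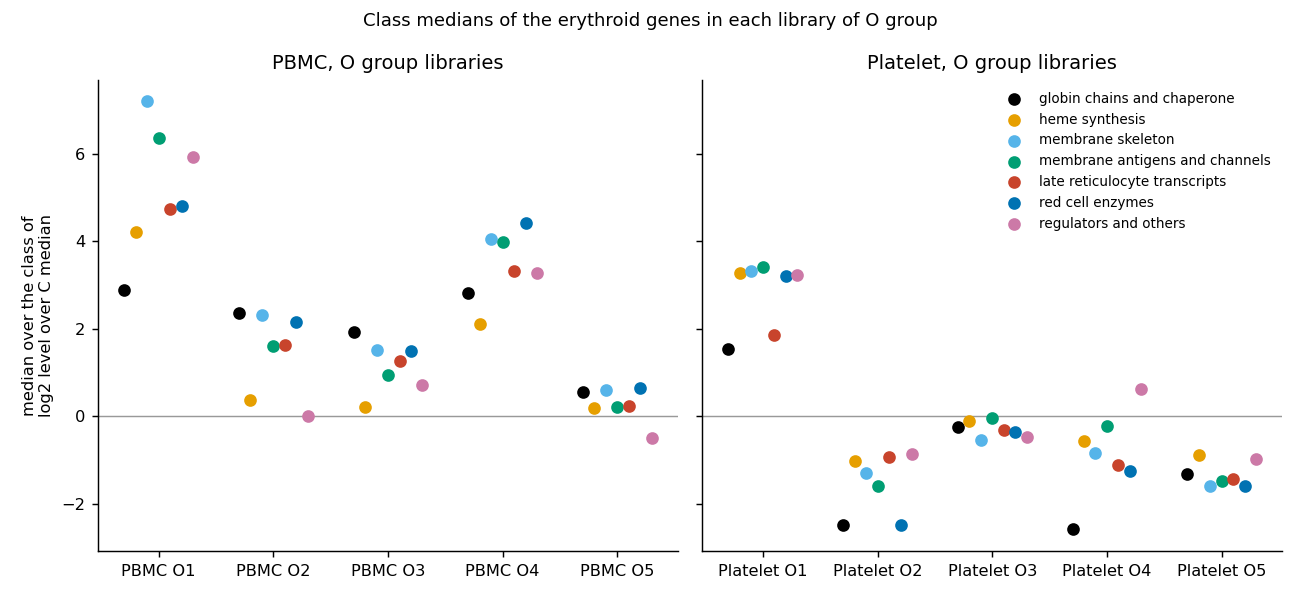
Class medians in the O group libraries. Each point is the median over a class of the log2 level over the C group median, for the 5 PBMC and 5 platelet libraries. Heme synthesis is at 4.22 and 2.12 in PBMC O1 and O4 and at 0.37 and 0.22 in O2 and O3, where the globins are at 2.37 and 1.93.

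Early tumor and control PBMCs were compared to ask whether any of these differences was present when no tumor was visible. Of 38 members tested, 1 was higher in the S group and none was lower at an unadjusted P below 0.05 in edgeR, against 2.64% of all genes in either direction and 1.23% as higher. None passed after adjustment, against 0.033% of all genes, and DESeq2 called 1 at the unadjusted and 0 at the adjusted threshold, against 2.51% and 0.199%. The member was Ube2o, with 111, 134, 158, 153 and 137 CPM in the C group and 164, 208, 268, 143 and 130.4 in the S group, which overlap. Its log2 fold change was 0.42 (SE 0.18). The median over members was 0.20, within a range from -0.11 to 0.80, and single values were 0.24 (SE 0.33) for Hba-a1, 0.23 (SE 0.40) for Alas2 and 0.18 (SE 0.47) for Slc4a1. Same-numbered C and S libraries deviated together, and with the replicate number as a block 7 members were called higher, against 4.30% of all genes in either direction. The value rests on single libraries. Without S3, the library with counts on many more genes, 0 members were called and the median was 0.02, against 2.90% of all genes, and without C3 10 were called, against 3.93%. Leaving out C1, C2, C5 or S2 also gave 0, against 2.38% to 2.93% of all genes, and leaving out S5 gave 2, against 2.89%. S3 exceeded every C group library for 23 of 40 members and 15.4% of all genes tested, and the other S group libraries did so for 0 to 5 members and 9.72% to 22.5% of genes.

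Early and large tumor were also compared directly, with the same O group libraries as above. In PBMCs, 35 of 38 members were lower in the S than in the O group at the unadjusted threshold in edgeR and none was higher, with a median of -3.09, against 12.2% of all genes in either direction and 7.80% as lower. None passed after adjustment in edgeR, against 0% of all genes, whereas 24 members did in DESeq2, against 1.87% of all genes. With voom 22 were called at the unadjusted threshold, against 14.6% of all genes, and with the replicate number as a block 17, against 13.8%. With O1 and O4 left out, 23 members were lower and 1 higher in edgeR, with a median of -1.01, against 8.42% of all genes in either direction. Urod, a heme synthesis enzyme, was the only member without overlap, at 37.9, 39.5, 39.8, 29.9 and 32.5 CPM in the S group and 1596, 75.8, 43.7, 398 and 40.4 in the O group, and 0.858% of all genes were lower without overlap. On CPM without TMM factors its groups overlapped.

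In platelets, large tumor and control differed in fewer erythroid genes. Of the 40 members tested, 7 were higher in the O group at an unadjusted P below 0.05 in edgeR and none was lower, against 4.79% of all genes in either direction and 2.61% as higher. The 7 were Alad, Cpox, Add2, Rhag, Ermap, Car1 and Klf1, and the median over members was 1.01, within a range from -0.11 to 3.63. None passed after adjustment in edgeR, against 0% of all genes, the smallest adjusted P of a member being 0.910. DESeq2 called 1 of 24 members with a P at the unadjusted and 0 at the adjusted threshold, against 5.94% and 0.0383% of all genes with such a P. These values rested on O1. It exceeded every C group library for all 40 members and 30.1% of all genes tested, and the other O group libraries did so for 1 to 7 members and 13.1% to 16.6% of genes. O1 was the highest platelet library for all 40 members, but for 36 on CPM without TMM factors, where Hba-a2 was higher in C3. Without O1, Cpox and Car1 were called higher and Slc25a37 and Trim10 lower, against 4.38% of all genes, and the median was -0.79. Without C2, C3 or C5 of the control platelets 4 were called, against 3.60% to 4.67% of all genes, and without O5 12, against 6.18%. With no filter on low counts 11 were called, against 5.98% of all genes, and with voom 0, against 6.65%. With the replicate number as a block 2 were called, against 6.50%, and the median was 0.23.

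None of the globins was called in platelets, with a class median of 0.034. Hba-a1 had levels of 246587, 38001, 127475, 161100.0 and 197204 CPM in the C group, 69412, 172382, 118621, 60996 and 83658 in the S group, and 498965, 31006, 135853, 30404 and 73873 in the O group. Hbb-bs had 57099.7, 10557, 29463, 47153 and 48079 CPM in the C group, 19330.5, 41424, 30969, 14819 and 28655 in the S group, and 129320.0, 7886, 44846, 8592 and 16664 in the O group. O1 was the highest and O2 and O4 the lowest platelet libraries for both genes, with C2 close to them. Hba-a2 had 11487, 1345, 12965, 10439.7 and 9182 CPM in the C group, 11082, 7497, 6094, 3661 and 5192 in the S group, and 21328, 3491, 8723, 1594 and 8501 in the O group. Hbb-bt had 20094, 3083, 6585, 20813 and 17594 CPM in the C group, 8028, 12624, 7785, 5008 and 7859 in the S group, and 55129, 1943, 10637, 2559.6 and 5018 in the O group. Apart from O1, no O group library exceeded all of the C group in any of the 4 genes. The log2 fold change between O and C groups was -0.020 (SE 0.99) for Hba-a1, -0.077 (SE 0.72) for Hba-a2, 0.087 (SE 0.86) for Hbb-bs and 0.12 (SE 0.92) for Hbb-bt.

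Heme synthesis in platelets had 2 of 8 members called higher, with a median of 1.14. Alas2 had levels of 15465, 1670.1, 3611, 9294 and 9909.9 CPM in the C group, 6411, 7838, 8193, 4149.5 and 8289.5 in the S group, and 31586, 1624, 7943, 1818 and 3249 in the O group, a log2 fold change of 0.19 (SE 0.86). Alad had 4.92, 5.77, 9.37, 5.49 and 9.28 CPM in the C group, 6.79, 9.29, 5.21, 7.20 and 5.51 in the S group, and 169.6, 5.52, 6.94, 11.3 and 6.48 in the O group, a log2 fold change of 2.47 (SE 0.93). For Alas2 only O1 and for Alad O1 and O4 lay above the C group. Cpox, the enzyme of the sixth step, was higher at 1.93 (SE 0.70).

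Among the membrane skeleton and antigen genes, 1 of 8 and 2 of 5 were called, with medians of 1.49 and 1.54. Slc4a1 had 939.9, 44.2, 145, 474 and 597 CPM in the C group, 173, 253, 224, 223 and 459.8 in the S group, and 6916, 90.3, 302, 194 and 126 in the O group. Epb42 had 54.2, 4.06, 11.5, 39.8 and 48.3 CPM in the C group, 9.13, 16.1, 10.9, 13.3 and 28.6 in the S group, and 421, 6.87, 25.5, 12.5 and 9.44 in the O group. Only O1 exceeded the C group in either gene, and neither passed, at 1.77 (SE 1.21) and 1.56 (SE 1.12). Rhd had 12.1, 0.470, 3.88, 9.0005 and 11.3 CPM in the C group, 3.61, 3.56, 4.11, 3.27 and 5.15 in the S group, and 97.2, 2.08, 3.88, 4.89 and 2.69 in the O group, at 1.54 (SE 1.10). Rhag had 5.27, 0.0427, 0.340, 4.17 and 2.06 CPM in the C group, 0.849, 0.768, 1.25, 1.08 and 1.77 in the S group, and 114, 1.01, 3.36, 3.02 and 0.764 in the O group, at 3.33 (SE 1.44). The pattern was again a single high O group library over a wide C group. Add2 was at 2.81 (SE 1.27) and Ermap at 2.91 (SE 1.27), and without O1 Add2, Rhag and Ermap turned to -0.67, -0.23 and -0.32.

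Of the 8 late reticulocyte transcripts, 0 were called in platelets, and the class median was 0.30. Bnip3l had levels of 1850.3, 710.4, 686, 1217 and 1449 CPM in the C group, 807, 1016, 1079.8, 634 and 1176 in the S group, and 3569, 847, 939.9, 527 and 467 in the O group, at 0.083 (SE 0.55). Fbxo7 had 29.4, 8.85, 13.7, 19.0 and 25.6 CPM in the C group, 17.5, 19.2, 17.0, 14.6 and 20.1 in the S group, and 67.3, 10.5, 20.7, 11.5 and 10.3 in the O group, at 0.28 (SE 0.53). In both genes O1 was the highest library, and the other O group libraries did not exceed the C group. The class was thus called in full in PBMCs and not at all in platelets, and the test of that difference is given with the tissue interaction.

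For the enzymes and regulators, Bpgm had 8159, 874, 1867, 5310.0 and 5967 CPM in the C group, 3145, 3819.7, 3825, 2155 and 4259 in the S group, and 14513, 911, 4008, 841 and 1764 in the O group, at -0.028 (SE 0.83). Car1 had 1.19, 1.11, 1.02, 1.59 and 1.61 CPM in the C group, 0.849, 0.978, 0.881, 0.951 and 0.624 in the S group, and 75.9, 2.03, 1.87, 3.33 and 1.62 in the O group. Car1 was the only member whose groups did not overlap, with all of the O group above and all of the S group below the C group, though O5 lay only just above the highest C group library. Its log2 fold change was 3.63 (SE 1.11) in the O group and -0.61 (SE 0.31) in the S group, and of all genes 0.535% were higher in the O group and 0.460% lower in the S group without overlap. On CPM without TMM factors the S and C groups overlapped, and on CPM over counts outside hemoglobin genes both groups overlapped the C group. Klf1 had 0.237, 0.128, 0.534, 1.26 and 0.580 CPM in the C group, 0.106, 0.210, 0.220, 0.165 and 0.520 in the S group, and 24.1, 0.394, 0.373, 2.02 and 0.733 in the O group, at 3.25 (SE 1.18). O1 and O4 alone exceeded its C group. Epor had 17.6, 10.5, 7.33, 9.99 and 7.09 CPM in the C group, 11.8, 12.6, 21.6, 8.36 and 9.21 in the S group, and 28.4, 14.5, 12.7, 22.6 and 5.77 in the O group, at 0.66 (SE 0.38).

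**Figure D4:**
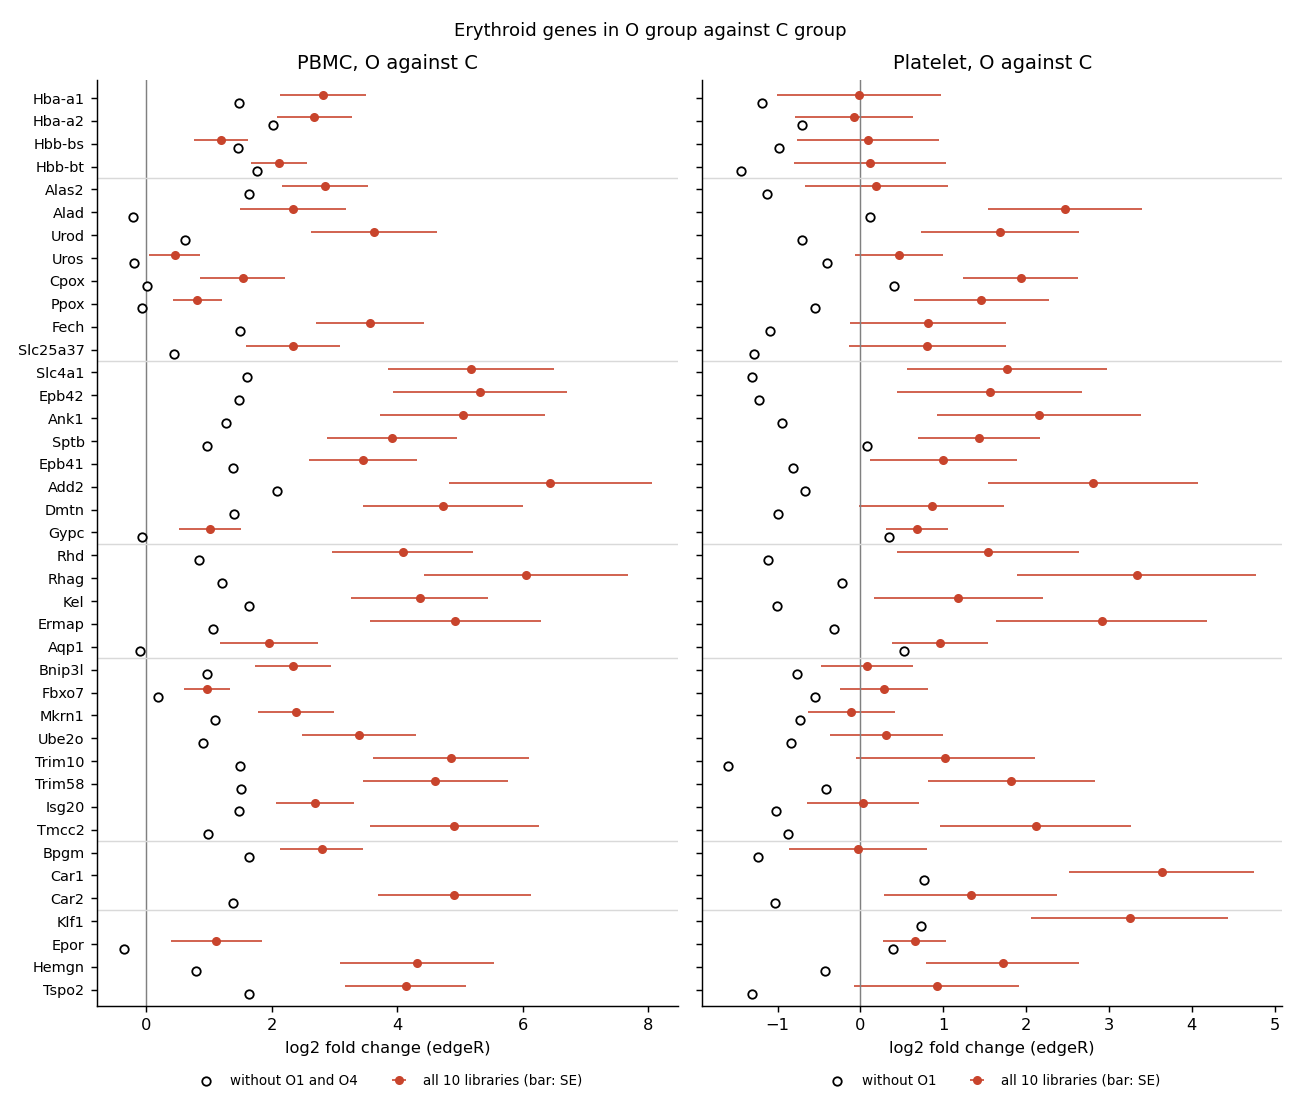
Log2 fold change of each erythroid gene in the O group against the C group, in PBMCs (left) and platelets (right). Red points are the edgeR estimate over all 10 libraries with its SE, and open points leave out PBMC libraries O1 and O4 or platelet library O1. The median falls from 3.42 to 1.24 in PBMCs and from 1.01 to -0.79 in platelets.

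Early tumor and control platelets were compared for the same question. Of 39 members tested, 0 had an unadjusted P below 0.05 in edgeR or in DESeq2, against 6.42% of all genes in either direction and 2.13% as lower, and 0 had an adjusted P below 0.05, against 0.00754% of all genes. With voom 1 member was higher and 1 lower at the unadjusted threshold, against 15.7% of all genes, and with no filter on low counts 6 of 40 were lower, against 7.72% in either direction. The median was -0.40, within a range from -1.03 to 0.26, and the class medians lay between -0.90 for antigens and channels and -0.17 for heme synthesis. Values were -0.62 (SE 0.56) for Hba-a1, -0.21 (SE 0.48) for Alas2, -0.73 (SE 0.57) for Slc4a1, -1.02 (SE 0.53) for Epb42 and -1.03 (SE 0.74) for Rhag. C group itself was wide, since C2 and C3 had median levels of -2.04 and -1.22 on the log2 scale relative to the group's median. By the labels C2 and C3 were pools of 5 mice, and the other C group and all S group platelet pools held 10. The part of pool size was not tested. Without C2, 14 members were lower in the S group with a median of -0.66, while 3 were lower without C3 and 2 without S5. Of all genes, 4.83%, 7.02% and 5.64% were called in these fits in either direction, and without C2 2.48% were higher. Against O group, with the same S group libraries, 15 of 39 members were lower in the S group and none was higher in edgeR, with a median of -1.41, against 13.9% of all genes in either direction and 6.67% as lower, and DESeq2 called 3 of 14 members with a P, against 16.3% of genes, and voom 2, against 17.0%. None passed after adjustment in edgeR, against 0% of all genes. With the replicate number as a block 1 member was called, against 11.6% of all genes, with a median of -0.15. Without O1, 6 members were higher and 2 lower in the S group, against 14.9% of all genes, and the median was 0.32. Leaving out S1, S2, S4 or S5 gave 8, 9, 7 and 9 members, all lower, against 9.60%, 12.4%, 13.2% and 12.5% of all genes in either direction. Car1 had no overlap between S and O groups, as did 1.57% of all genes in the lower direction.

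Platelets and PBMCs were compared over all 30 libraries to describe which erythroid transcripts each preparation carried. Of 40 members, 32 were higher in platelets and 1 was lower at an adjusted P below 0.05 in edgeR, with a median of 1.90, against 35.8% of all genes as higher and 45.2% as lower, 81.0% in all. The globins were all higher in platelets, at 3.09 (SE 0.49) for Hba-a1, 1.63 (SE 0.43) for Hba-a2, 1.56 (SE 0.35) for Hbb-bs and 1.502 (SE 0.42) for Hbb-bt. All 8 membrane skeleton genes and all 8 late reticulocyte transcripts were higher too, with medians of 1.91 and 2.36, and the 3 enzymes had a median of 2.57. Heme synthesis was mixed, with 3 of 8 higher, among them Alas2 at 2.61 (SE 0.48), and Ppox, the next to last enzyme of the pathway, lower at -1.01 with an adjusted P of 0.00486. Ppox shares 17.5% of its exonic bases with B4galt3 on the opposite strand. Epor was at 3.51 (SE 0.31) and was the only member whose 15 platelet libraries all lay above all 15 PBMC libraries on levels scaled over the 30 libraries together, as did 11.5% of all genes, while on CPM without TMM factors they overlapped. Alad, Uros, Cpox, Slc25a37, Rhag, Ermap and Klf1 did not pass. This comparison is relative to a median of -0.17 over all genes, and 25 to 38 members passed when single libraries were left out, against 80.2% to 81.7% of all genes. Without PBMC O1 and O4, or without O1 of both tissues, 38 passed, 37 of them higher in platelets, against 80.7% and 82.5% of all genes in either direction.

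Whether the difference between O and C groups itself differed between the tissues was tested as an interaction. At an unadjusted P below 0.05, 15 of 40 members had a larger O against C difference in PBMCs than in platelets and none a smaller one, with a median of 2.496, against 5.35% of all genes in either direction and 2.12% in this direction. None passed after adjustment in edgeR, against 0% of all genes, the smallest adjusted P of a member being 0.895. DESeq2 called 18 of 34 members with a P at the unadjusted and 0 at the adjusted threshold, against 6.09% and 0.00635% of all genes with such a P. The 15 were Hba-a1 and Hba-a2, Alas2 and Fech, Epb42 and Dmtn, Kel, the late reticulocyte transcripts Bnip3l, Mkrn1, Ube2o, Trim10 and Isg20, the enzymes Bpgm and Car2, and Tspo2. By class, 5 of 8 late reticulocyte transcripts were called, against 2 of 8 heme synthesis and 2 of 8 membrane skeleton genes, with medians of 2.66, 0.69 and 3.08. The count turned on single pools. It was 34 without platelet O1, against 10.1% of all genes in either direction and 4.78% in this direction. Without O1 of both tissues it was 32, against 8.27% and 4.29%. It was 8, 9 and 3 without PBMC C1, C4 and O1, with 1 in the other direction for O1, and 7, 9 and 9 without platelet C1, O3 and O4, against 4.35% to 6.20% of all genes in either direction. With PBMC O1 and O4 left out, 1 member was called in this direction and 3 in the other, against 4.43% of all genes, and the median was -0.19. With same-numbered PBMC and platelet libraries of a group as a block, 29 members were called, 28 of them larger in PBMCs, against 5.53% of all genes in either direction.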

How the data were processed

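Poly(A)-selected RNA of 30 pooled libraries was sequenced on a NovaSeq instrument. The authors aligned reads with HISAT2 2.0.5 and counted them per gene with featureCounts 1.5.0-p3, and the deposited tables hold whole-number counts per gene, not normalized, which were used as they stand. The processing notes name mm9, but the gene identifiers matched GENCODE M21 on GRCm38, which is the build of all positions given here. Identifiers were matched to symbols for 54409 of 54532 genes.

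Members, classes, gene lists and tests were chosen with earlier results of these data known. Groups were compared pairwise within a tissue with edgeR 4.0.16 in R 4.3.3 (filterByExpr, TMM scaling, two-sided quasi-likelihood test), and P-values were adjusted by Benjamini-Hochberg over all genes tested. The unadjusted threshold of 0.05 follows the study. Group entered the fit of platelets against PBMCs, which took all 30 libraries, and the interaction used the C and O groups. SEs are the log2 fold change divided by the square root of F. The code was tested on simulated data. Values in every library are given for the first genes of each class, for the globins, and for any member that passed the adjusted threshold within a tissue; Trim58, Ube2o and Urod were added after their values were seen. Of further red cell genes, the pair of each list with the smallest P in PBMCs was to be named, and some of these are not reported here. P-values measure the spread between pooled libraries. No pair of replicate libraries agreed within sampling noise.

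Same-numbered libraries were checked for pairing by correlating their deviations from the group means. All 5 pairs exceeded 0.1 only for C and S group in PBMCs, at 0.252 to 0.550. For S and O group in PBMCs and for O and C group in platelets 4 of 5 pairs did, with highest values of 0.383 and 0.447. The labels name no shared batch. Alternatives were DESeq2 1.42.0, its size factors, size factors without hemoglobin genes, no filter on low counts, the replicate block, all 3 groups in one fit, limma 3.58.1 voom with sample weights, leaving out each library, and, added after the data were seen, leaving out the libraries named in the report.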

Additional observations from a re-analysis of the deposited data

Results flagged for a closer look

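For each gene given in every library, the highest or lowest library of a group of 5 was checked for a gap to its nearest neighbor. The gap had to exceed 0.71 of the group's range, as happens by chance in about 1 in 20 groups of independent, normally distributed values. The levels were not log-transformed and the genes come from the same libraries, so that rate cannot be set against the count of gaps found here. Of 121 sets of values, which include 3 ratios and shares of globin counts in each group, 30 had such a gap. In platelets of O group, library 1 was the one apart in 13 genes, with a gap of 0.775 of the range for Hba-a1, 0.837 for Hbb-bt, 0.789 for Alas2, 0.965 for Alad, 0.969 for Slc4a1, 0.955 for Epb42, 0.971 for Rhd, 0.977 for Rhag, 0.848 for Bnip3l, 0.818 for Fbxo7, 0.768 for Bpgm, 0.977 for Car1 and 0.931 for Klf1. In PBMCs of O group, library 1 was apart in 9 genes, with 0.726 for Alad, 0.875 for Slc4a1, 0.921 for Epb42, 0.772 for Rhd, 0.923 for Rhag, 0.725 for Fbxo7, 0.913 for Klf1, 0.862 for Trim58 and 0.770 for Urod. Library 1 of O group was thus the high library in both tissues, and was a pool of 3 mice in both.

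Control PBMC library 3 was apart in 5 genes, with 0.758 for Hbb-bt, 0.734 for Alas2, 0.722 for Slc4a1, 0.720 for Epb42 and 0.757 for Bpgm. S group library 1 in PBMCs was apart for Alad at 0.791, and S group library 5 in platelets for Slc4a1 at 0.721 and Klf1 at 0.724. All of these were the highest library of their group.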

How the results depend on the processing

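Counts are of members with an unadjusted P below 0.05 unless stated, and a percent in parentheses is the share of all genes in the same fit. For O against C group in PBMCs, the count with an adjusted P below 0.05 rose from 0 to 24 (1.93%) with DESeq2, and the replicate block gave 21 (12.2%) at the unadjusted threshold. Without PBMC O1 and O4, Alad turned to -0.21 and Aqp1 to -0.093, and in S against O group Alad turned to 0.27 and Cpox to 0.0092. For S against C group in PBMCs, the main fit gave 1 (2.64%), the block gave 7 (4.30%), all 3 groups in one fit gave 0, and leaving out single libraries gave 0 to 10. For S against O group in PBMCs, DESeq2 gave 24 (1.87%) at the adjusted threshold, the block 17 (13.8%) and voom 22 (14.6%). For O against C group in platelets, DESeq2 gave 1 of 24 (5.94%), no filter 11 (5.98%), the block 2 (6.50%), voom 0 (6.65%) and single libraries left out 4 to 12. Its median was -0.24 with voom and -0.79 to 1.41 with single libraries left out. Add2 was at -0.13 with voom and -0.67 to 3.18, Rhag at -0.23 to 3.91 and Ermap at -0.32 to 3.26. For S against C group in platelets, no filter gave 6 (7.72%), voom 2 (15.7%) and single libraries left out 0 to 14. For S against O group in platelets, DESeq2 gave 3 of 14 (16.3%), the block 1 (11.6%), voom 2 (17.0%) and single libraries left out 7 to 20. With single libraries left out its median ranged from -1.68 to 0.32, Urod from -2.54 to 0.11, Slc4a1 from -2.82 to 0.53, Epb42 from -2.94 to 0.16, Ank1 from -3.12 to 0.26, Rhd from -2.75 to 0.17, Tmcc2 from -2.95 to 0.32 and Car2 from -2.50 to 0.11. For the interaction, the block gave 29 (5.53%), of which 28 had the larger difference in PBMCs, and the count was 4 without PBMC O1 and O4, 32 without O1 of both tissues and 4 to 34 with single libraries left out. Its median was -0.19, Epb42 at -0.023 and Klf1 at -3.98 without PBMC O1 and O4, and Alad ranged from -1.50 to 2.04. The cause of these changes was not tested, except that fewer genes had a P in DESeq2. Within a tissue, same-numbered libraries other than PBMC C and S group had correlations from -0.21 to 0.45, not all above 0.1. Across tissues they ranged from -0.12 to 0.63, with 0.63 and 0.57 for O group libraries 1 and 5, and the labels do not say whether these pools held the same mice. Voom was not run for the tissue comparison and the interaction. Pools of a few mice and 5 libraries per group limit the precision, and with all libraries no member had an adjusted P below 0.05 within a tissue in edgeR.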

Other observations

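Further red cell genes outside the 42 were counted by list in PBMCs of O group. At an unadjusted P below 0.05 in edgeR, 11 of 11 other late reticulocyte transcripts were higher than in C group (median log2 fold change 2.73) and 6 of 6 other red cell enzymes (2.95), against 5 of 11 other membrane genes (1.03), 5 of 14 heme and iron genes (0.28) and 3 of 10 erythroid regulators (0.69), and none was lower, against 7.56% of all genes as higher. Without PBMC O1 and O4 the counts were 8 of 11, 6 of 6, 4 of 11, 3 of 14 and 0 of 10, against 5.19% of all genes. In platelets the counts were 0 of 12, 1 of 7, 3 of 12, 3 of 13 and 1 of 10, against 2.61% of all genes as higher. Without platelet O1 none was higher in any of these lists, and 1 late reticulocyte transcript and 1 enzyme were lower, against 1.80% of all genes as higher and 2.57% as lower. Among those with the smallest P of their list in PBMCs were the ubiquitin-conjugating enzyme Ube2l6 at 2.67, the glyoxalase Hagh at 2.82, glutathione peroxidase Gpx1 at 2.31, glutaredoxin Glrx5 at 2.82, the heme exporter Flvcr1 at 0.31, and the transcription factors Sox6 at 5.50 and Lmo2 at 0.81. In platelets these genes were at -0.01, 0.64, -0.05, 0.38, -0.05, 2.96 and -0.05, in the same order, and Sox6 alone was called.

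Leukocyte markers were measured beside them. In PBMCs of O group, all 8 T cell markers were lower than in C group at the unadjusted threshold in edgeR (median -0.36), as were 3 of 7 NK cell markers, against 4.39% of all genes as lower. With O1 and O4 left out, 7 of 8 and 4 of 7 were lower, against 3.89%. In platelets of O group, 4 of 8 T cell and 4 of 8 B cell markers were lower, against 4.79% of all genes in either direction and 2.61% as higher. Without O1 these counts were 4 and 3, against 2.57% as lower. Of the melanocyte and melanoma markers, up to 4 of 6 were at 0 in a library.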
